A study of Mus musculus with 4 samples.

Results

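The EGR, NR4A and IER genes are immediate early genes, the group whose transcription starts within minutes of a stimulus without new protein synthesis. Binding of tyrosine-phosphorylated STAT3 (pSTAT3) was examined at 10 of them, Egr1, Egr2, Egr3, Egr4, Nr4a1, Nr4a2, Nr4a3, Ier2, Ier3 and Ier5, chosen by name. Reproducible pSTAT3 regions that the authors' table pairs with one of these names were taken, which gave 19 of its 12925 regions, at 9 of the 10 genes. Of 21883 protein-coding genes, 42.5% are listed with a region. The cells were oligodendrocyte progenitors from the cortex of C57BL/6 mice, kept dividing with 2 growth factors, bFGF at 20 ng/ml and PDGF-AA at 10 ng/ml, and exposed to the cytokine CNTF at 100 ng/ml for 15 min. All 4 libraries of the series come from such treated cells: 2 were ChIP with an antibody to STAT3 phosphorylated at its activating tyrosine, and 2 were inputs, which were not analysed here. There is no untreated group, so the values describe where pSTAT3 lay after CNTF and not what CNTF changed. Lysates were pooled, no label says that the ChIP libraries are separate cultures, and their spread may be technical.

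CNTF signals through receptors that contain gp130 and activate JAK kinases, which phosphorylate STAT3. The phosphorylated dimer enters the nucleus and binds DNA. EGR proteins are zinc finger transcription factors that bind GC-rich sites. NR4A proteins are orphan nuclear receptors that act without a known natural ligand, and the IER genes encode short-lived regulators that are named for their kinetics. Textbook control of these genes runs through serum response factor at serum response elements and through CREB at cAMP response elements, and growth factors such as those in this medium engage both. Sites of pSTAT3 at the same genes are therefore of interest beside those elements.

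Promoter sequence was taken from the RefSeq promoter table (GRCm38.p6), which holds 7 of the 10 genes. Egr1, Egr3 and Ier2 are not among them. The stretches below were picked because peaks of both libraries lay in or beside them. The first Egr2 stretch is the 250 bases (chr10:67537316-67537565, plus strand) in front of the RefSeq start at 67537566, and it holds the summits of the strong Egr2 region in both libraries. The second is 30 bases (chr10:67537792-67537821, plus strand) in front of the start at 67537869. The Nr4a1 stretch (chr15:101266596-101266845, plus strand) ends at the start of the gene. The Nr4a3 stretch (chr4:48045055-48045152, plus strand) ends at the first listed start, 48045153, and RefSeq places the start at 48045305. Both NR4A stretches had weak peaks only. Capitals mark a serum response element, TGACG (the core of the cAMP response element), the EGR site GCGGGGGCG, or TTCNNGAA, each on either strand.
Egr2, summits: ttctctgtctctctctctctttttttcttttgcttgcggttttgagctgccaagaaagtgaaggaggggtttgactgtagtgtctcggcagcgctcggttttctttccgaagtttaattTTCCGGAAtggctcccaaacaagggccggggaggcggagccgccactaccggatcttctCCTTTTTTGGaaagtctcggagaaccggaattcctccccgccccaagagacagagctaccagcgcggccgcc
Egr2, at 67537869: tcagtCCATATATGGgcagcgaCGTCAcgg
Nr4a1: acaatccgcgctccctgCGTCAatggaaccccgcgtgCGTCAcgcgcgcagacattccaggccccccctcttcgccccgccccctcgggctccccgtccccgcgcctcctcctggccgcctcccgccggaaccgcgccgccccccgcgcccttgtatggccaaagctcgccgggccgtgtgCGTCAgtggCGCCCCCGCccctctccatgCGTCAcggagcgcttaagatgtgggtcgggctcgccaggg
Nr4a3: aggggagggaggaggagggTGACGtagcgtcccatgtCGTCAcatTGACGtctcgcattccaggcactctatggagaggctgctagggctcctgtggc

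The letters of the classical STAT site, TTCNNNGAA on either strand, were in none of the 11 promoter entries of the 7 genes, each 300 bases long with 250 before and 50 after the start. Among all 32851 promoters of that length 8.30% held it, and 21.2% of the 1264 promoters with both summits of a reproducible region inside, of which the Egr2 window is 1. No other of the 11 entries held the summits of any of the 19 regions. The absence therefore does not extend to the other regions, most of whose sequence was not available to search. The stricter TTCCNGGAA, part of the same motif, was likewise in none of the 11. It was in 1.15% of all promoters and in 9.26% of the 1264 with both summits inside. A shorter arrangement, TTCNNGAA, was chosen after the sequences were seen. It was in the Egr2 window at 131 bp before its start, 61 bp from the summit of replicate 1 and 38 bp from that of replicate 2. Of all promoters 8.52% held it, as did 10.8% of the 1264 with both summits inside. Serum response elements were in 4 of the 11 entries, all of Egr2, and 1.63% of all promoters held one. The first, CCTTTTTTGG, lay 72 bp before the start at 67537566, and the other 3 entries overlap and share CCATATATGG, 72 bp before the start at 67537869. TGACG was in 7 of the 11 entries, against 20.8% of all promoters. These were 1 each of Egr4, Nr4a1, Nr4a2 and Nr4a3 and the 3 overlapping Egr2 entries. The full palindrome TGACGTCA, which contains it, was in none of the 11 and in 1.79% of all promoters. The EGR site GCGGGGGCG was in the Nr4a1 promoter, 60 bp before the start, and in 2.91% of all promoters. The other EGR site searched, GCGTGGGCG, was in none of the 11 entries and in 0.612% of all promoters. The AP-1 letters TGANTCA were in none of the 11 entries and in 7.81% of all promoters.

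Fold enrichment is the authors' value for each peak, the fragments stacked at the summit (the pileup) over the local background with 1 added to each. The inputs were not analysed here on their own, and any part they had in the authors' background is inside these folds. Each region was given the strongest overlapping peak of each library, and its strength is the lower of both folds. Replicate 1 was the deeper library, with 42131 peaks and a lowest background of 4.72 fragments, against 26537 peaks and 2.91 in replicate 2. Read totals are not given in the sources used here. In a population of cells, binding in fewer cells and weaker binding in every cell cannot be told apart. Peak lists hold no expression, so they do not check the cell label. Regions lay within 5 kb of a start at 4 of 6 progenitor markers, 4 of 4 astrocyte markers, 2 of 3 neuron markers and 0 of 3 microglia markers. Of all protein-coding genes 18.1% had a region in that window, and the marker lists are short.

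A midpoint lay within 5 kb of a start at 5 of the 10 genes, Egr1, Egr2, Nr4a2, Ier2 and Ier3, where 18.1% of 21883 protein-coding genes had one. Within 1 kb it was 3 of 10 (Egr1, Egr2 and Nr4a2) against 12.8%, and within 25 kb 8 of 10 against 34.3%. Of the 19 regions, 3 (15.8%) lay within 1 kb of a start of the gene, 3 between 1 and 5 kb, 10 (52.6%) between 5 and 25 kb and 3 farther. Over all 27145 pairs of a region and a gene in the table, these bins held 13.6%, 11.3%, 45.5% and 29.6%. The table listed 6 of the genes with 2 or more regions (18.6% of all genes) and Egr1 and Ier3 with 4 (4.17% of all genes had 4 or more). With 10 genes, each one moves a share by 10 points, and no test was made because the genes were chosen with results of these data known.

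**Figure D1:**
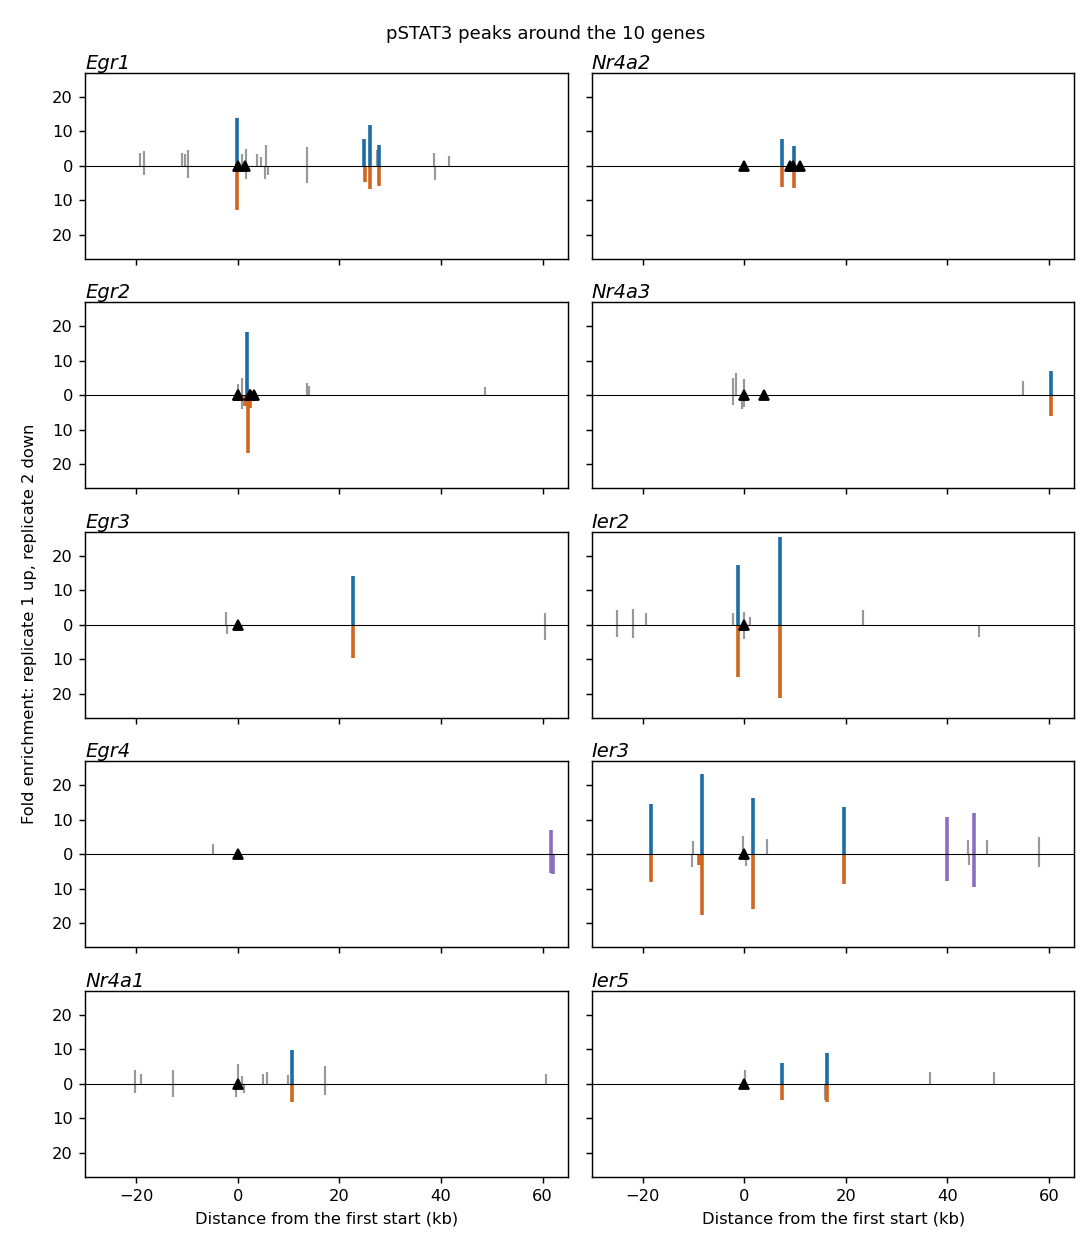
Peaks around each gene, with distance from the first (most 5') start in kb on the horizontal axis, in the direction of transcription, and fold enrichment on the vertical axis (replicate 1 upward, replicate 2 downward). Blue and orange bars are peaks in a reproducible region listed for the gene, purple bars peaks in a region listed for other genes only, grey bars peaks outside the table, and triangles are starts. The tall bars of Ier2 and Ier3 stand beside the starts rather than on them, and the Egr3 region 109 kb upstream is off the axis.

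By the lower fold the 19 regions were ordinary. Their median lower fold was 6.66, with a range from 4.59 to 21.2, and the median over all 12925 regions was 7.48. The lower fold was above that median in 9 of the 19. Only the strongest Ier2 region exceeded 90% of all regions by this measure. The libraries differed in direction. In replicate 1 the median fold of the 19 was 11.8, above the 10.4 of all regions. In replicate 2 it was 6.66, below the 7.51 of all regions. By family, the lower folds ran from 4.59 to 16.9 over 7 EGR regions, from 5.41 to 6.18 over 4 NR4A regions and from 4.76 to 21.2 over 8 IER regions. No NR4A region reached the overall median. Summits of both libraries fell close together, with a median gap of 16 bp in the 19 regions and 20 bp in all regions. The pileup of replicate 1 was 1.55 to 2.71 times that of replicate 2, with a median of 1.85, against a median of 2.0 over all regions. Replicate 1 had the higher fold in 18 of 19 (95.1% of all regions), the exception being a region of Nr4a2.

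**Figure D2:**
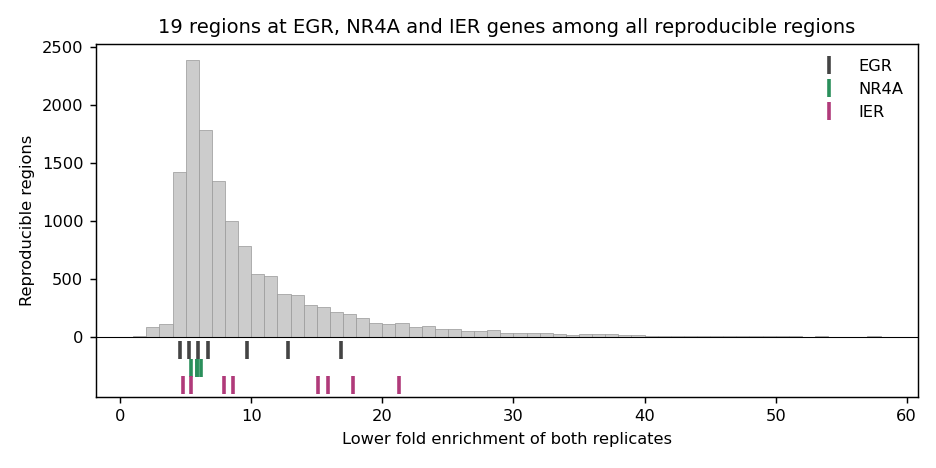
Histogram of the lower fold enrichment of both replicates for all 12925 regions, in steps of 1, with a tick for each of the 19 regions below it. The 4 NR4A ticks sit together between 5.41 and 6.18, left of the overall median of 7.48, while EGR and IER ticks spread to 16.9 and 21.2.

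Among the EGR genes, Egr2 carried the strongest site. Egr2 (Krox20) is known as the factor that drives myelination by Schwann cells of the peripheral nerve. Its single region (ENSMUSG00000037868) covered chromosome 10, 67536685 to 67538005 (GRCm38), with a pileup of 106 fragments and 18.5-fold enrichment in replicate 1 and 67 fragments and 16.9-fold in replicate 2. Its lower fold exceeded that of 88.3% of all regions. Summits lay 495 bp upstream of the listed start at 67537869 in replicate 1 and 472 bp in replicate 2, inside longer listed Egr2 transcripts. In replicate 2 the region held 2 further, weak peaks of 3.07-fold and 3.54-fold, the second 24 bp before that start. The mean -log10 p of 63.2 that the table gives this region averages these weak peaks with the strong one. Another weak pair, outside the table, stood at 5.07-fold and 3.84-fold, 653 and 762 bp downstream of another listed start.

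Egr1, the family's archetype and a common readout of ERK signalling, had 4 regions. The first (ENSMUSG00000038418) covered chromosome 18, 34859396 to 34860248, with 79 fragments and 14.0-fold enrichment in replicate 1 and 49 fragments and 12.8-fold in replicate 2. Both summits were upstream of the listed start at 34859823, by 213 and 197 bp, while the region's midpoint was 1 bp from it. RefSeq begins the gene at the other listed start, 34861207, downstream of this region. At that start the libraries held a weak pair of peaks, 4.79-fold 147 bp inside the gene in replicate 1 and 3.72-fold at 135 bp in replicate 2, which is not in the reproducible table. The stronger Egr1 site therefore sat at the upstream start and the weaker at the RefSeq start.

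The other 3 Egr1 regions formed a group 23.6 to 26.5 kb downstream of the start at 34861207, with no other listed start nearer. The middle one, at 34885600 to 34886078, was the strongest at 11.8-fold and 6.66-fold. The first of them, at 34884535 to 34884980, had more fragments in both libraries than the middle one, 88 and 36 against 78 and 31, but only 7.66-fold and 4.59-fold, over a local background of 10.6 and 7.06 fragments against 5.72 and 3.80. The last, at 34887483 to 34887865, had 5.96-fold and 5.95-fold and an IDR of 0.0364, near the limit of 0.05. Etf1, which encodes a translation termination factor, was the other gene listed with them, its start 44.3 to 47.3 kb away.

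Egr3 had no reproducible region within 5 kb of its start. Its stronger region (ENSMUSG00000033730) covered chromosome 14, 70099855 to 70100454, with 152 fragments and 14.2-fold in replicate 1 and 56 fragments and 9.68-fold in replicate 2. That site lay 22.7 kb downstream of the Egr3 start and 9 bp from a start of Bin3, which encodes a BAR domain protein. The other region, 109 kb upstream, had 6.30-fold and 5.24-fold. Egr3 had the nearest listed start, and a start of Pebp4, the other gene listed, was 128 kb away. Near the Egr3 start there was only a faint pair of peaks, 3.73-fold and 2.82-fold, 2337 and 2167 bp upstream.

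Egr4 was the gene without a row in the table, so no reproducible region lay within 25 kb of it. In the single lists, replicate 1 had 1 peak in that reach, of 17 fragments and 3.11-fold, 4887 bp upstream of the RefSeq start, and replicate 2 had none.

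The NR4A genes had 4 regions, all of modest strength, with folds from 5.87 to 9.68 in replicate 1 and from 5.41 to 6.46 in replicate 2. Nr4a2 (Nurr1), which is required for midbrain dopamine neurons, was the family member with regions inside the gene. Its region at chromosome 2, 57114090 to 57114575 (ENSMUSG00000026826), had 48 fragments and 5.87-fold in replicate 1 and 30 fragments and 6.46-fold in replicate 2, with summits 133 and 114 bp downstream of an internal start at 57114373. The other, at 57116102 to 57117124, had 55 fragments and 7.86-fold in replicate 1 and 28 fragments and 6.18-fold in replicate 2, 1.60 and 1.51 kb upstream of a start. Replicate 1 put the second site higher and replicate 2 the first, so the sites could not be ranked. At the farthest upstream start, 57124003, where RefSeq begins the gene and whose promoter holds 4 TGACG sites, neither library had a peak within 5 kb.

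Nr4a1 (Nur77) and Nr4a3 (Nor1), the related receptors, had their reproducible regions past the 3' end. The Nr4a1 region (ENSMUSG00000023034), chromosome 15, 101277270 to 101277843, lay 2.76 kb beyond the gene and 10.7 kb from its start, with 64 fragments and 9.68-fold in replicate 1 and 25 fragments and 5.41-fold in replicate 2. The start of Atg101, an autophagy initiation gene, was nearer, at 6.75 kb. The Nr4a3 region (ENSMUSG00000028341), chromosome 4, 48105362 to 48105701, lay 19.1 kb beyond the gene, with 39 fragments and 7.0-fold in replicate 1 and 22 fragments and 5.89-fold in replicate 2. Stx17, a SNARE gene of autophagosome fusion, had its start 19.4 kb away.

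Both promoters carried weak peaks outside the table. At the Nr4a1 start, replicate 1 had a strongest peak of 5.77-fold with its summit 19 bp upstream, and replicate 2 had 3.84-fold at 313 bp upstream. At the Nr4a3 start, replicate 1 had 4.79-fold 78 bp upstream, and replicate 2 had 3.44-fold at 106 bp and 3.96-fold at 428 bp upstream. Replicate 1 alone had a further Nr4a3 peak of 6.59-fold, 1653 bp upstream. Lower folds of 3.44 to 3.96 are below nearly all of the table: 1.16 to 1.42% of its regions had less. The table was selected by IDR from the same peaks, so a low place of pairs left out of it is set in part by that selection.

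**Figure D3:**
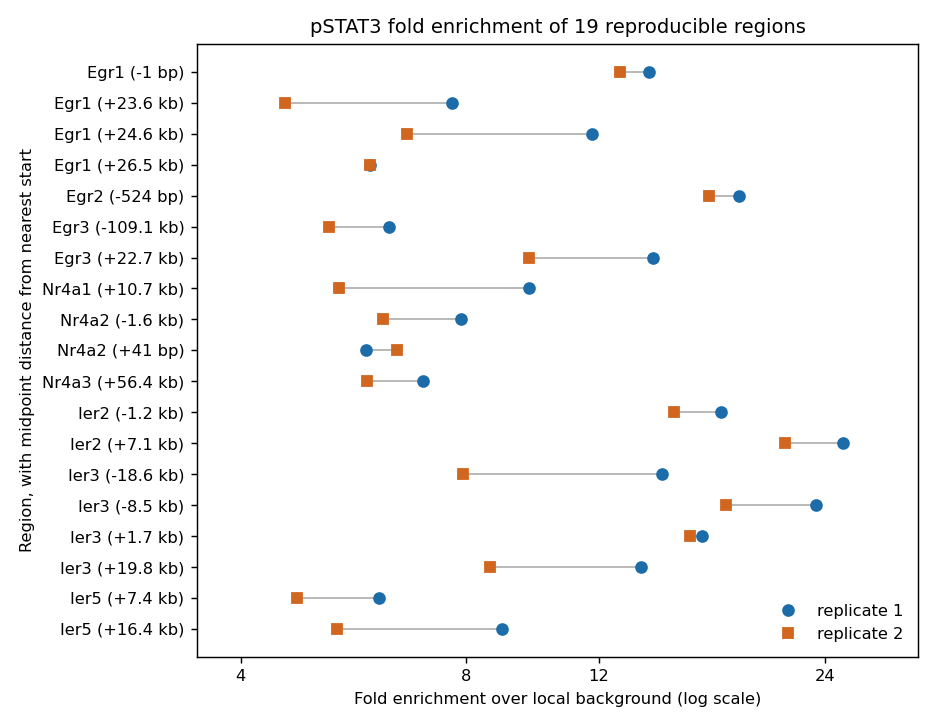
Fold enrichment on a log scale for each of the 19 regions, with replicate 1 as circles, replicate 2 as squares and the distance of the midpoint from the nearest start of the gene in the row label. Values of the regions at Egr1 (-1 bp), Egr2 and Ier3 (+1.7 kb) lie close between libraries, while those of Nr4a1 and the Ier3 region 18.6 kb upstream differ most, by 9.68 against 5.41 and 14.6 against 7.91.

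The IER genes held the strongest of the 19 regions, at Ier2. Ier2 (Pip92) encodes a nuclear regulator. Its region at chromosome 8, 84655484 to 84655930 (ENSMUSG00000053560), had 144 fragments and 25.4-fold in replicate 1 and 82 fragments and 21.2-fold in replicate 2, more than 93.3% of all regions by the lower fold. That site lay 5.62 kb beyond the 3' end of the gene and 7.15 kb from its start, with no other listed start nearer. The second Ier2 region, at 84663632 to 84664422, had 159 fragments and 17.5-fold in replicate 1 and 88 fragments and 15.1-fold in replicate 2. Its summits were 1155 and 1168 bp upstream of Ier2, and the predicted gene Gm26664 starts 1101 bp from its midpoint. More fragments but a lower fold than the first region go with a local background of 8.16 and 4.89 fragments against 4.72 and 2.91. At the Ier2 start itself the peaks were weak, 3.70-fold and 4.12-fold, 15 and 47 bp upstream, and outside the table.

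Ier3 (IEX-1), a stress-induced regulator of survival and of ERK signalling, had 4 regions. In order along the gene's strand they lay 18.6 and 8.47 kb upstream, 1.69 kb downstream and 19.8 kb downstream of the start at 35821684. The strongest was that 8.47 kb upstream (ENSMUSG00000003541; chromosome 17, 35812634 to 35813790), with 175 fragments and 23.4-fold in replicate 1 and 113 fragments and 17.7-fold in replicate 2. The nearest listed start was that of Ier3. The region just past the gene, at 35822783 to 35823956, had 123 fragments and 16.5-fold in replicate 1 and 61 fragments and 15.9-fold in replicate 2. Its midpoint was 446 bp beyond the 3' end of Ier3 and 13 bp from a start of Flot1, the gene of the membrane raft protein flotillin-1. The table lists this region for both genes.

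The outer Ier3 regions differed more between libraries. The one 18.6 kb upstream had 97 fragments and 14.6-fold in replicate 1 and 37 fragments and 7.91-fold in replicate 2. The one 19.8 kb downstream had 80 fragments and 13.7-fold against 33 fragments and 8.60-fold, and it lay 45 bp from a start of Mdc1, a DNA damage checkpoint gene. At the Ier3 start, replicate 1 had a peak of 5.22-fold 191 bp upstream and replicate 2 one of 3.33-fold 390 bp downstream, which did not overlap.

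Ier5, whose product acts on heat shock factor and protein phosphatase, had the weakest regions of the IER genes. The one at chromosome 1, 155091993 to 155092407 (ENSMUSG00000056708), 7.44 kb downstream of the start, had 50 fragments and 6.11-fold in replicate 1 and 27 fragments and 4.76-fold in replicate 2. The one at 155082985 to 155083405, 16.4 kb downstream, had 50 fragments and 8.92-fold against 20 fragments and 5.38-fold and was 71 bp from a start of the predicted gene Gm9530. At the Ier5 start, replicate 1 had a peak of 24 fragments and 4.04-fold, 58 bp downstream, and replicate 2 had none within 5 kb.

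**Figure D4:**
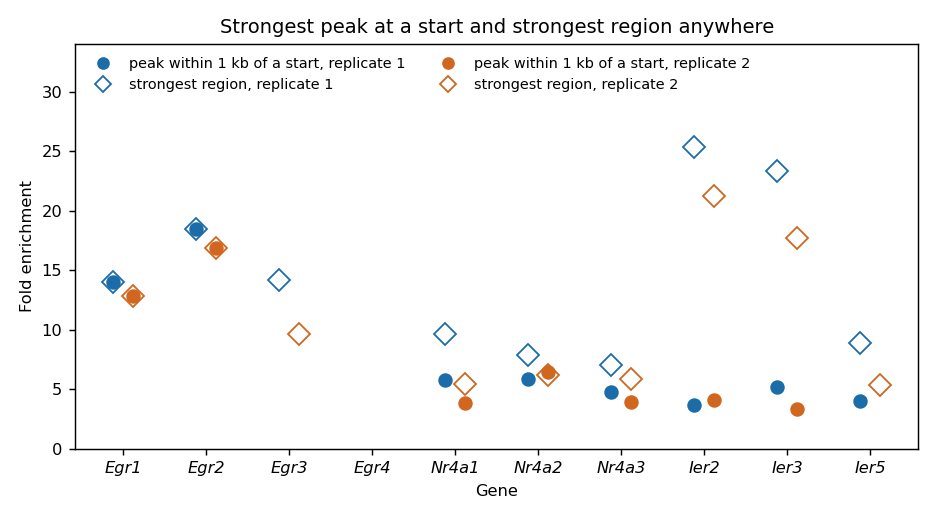
For each gene, the fold enrichment of the strongest peak with a summit within 1 kb of a start (filled circles) and of the strongest region listed for it (open diamonds), in replicate 1 (blue) and replicate 2 (orange). Both coincide at Egr1 and Egr2, while at Ier2 the values at the start are 3.70 and 4.12 and those of the strongest region 25.4 and 21.2; a missing symbol means no such peak or region.

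The single libraries were set against all genes by the ends of the RefSeq gene, which leave out starts inside a gene, such as those of Nr4a2 and Egr2. A summit lay within 1 kb of either end at 7 of the 10 genes in replicate 1 (36.2% of all genes) and at 5 in replicate 2 (22.6% of all genes). A peak lay within 5 kb of either end at 9 in replicate 1 (49.8% of all genes) and at 8 in replicate 2 (34.8% of all genes). With only as many replicate 1 peaks as replicate 2 has, the replicate 1 count was 7 (35.3% of all genes). With all peaks, Nr4a2 was without one in both libraries by these ends, and Egr4 in replicate 2. For 12 of the 19 regions the nearest listed start belonged to the gene itself, and for 7 to a neighbour: Bin3, Atg101, Stx17, Gm26664, Flot1, Mdc1 and Gm9530. Which gene a region acts on was not measured. The table lists further genes with these regions by distance. They are Reep2 and Kdm3b (Egr1), Ado (Egr2), 6030408B16Rik (Nr4a1), BB557941 (Nr4a2), Trmt1, Nacc1 and Cacna1a (Ier2), and 4833427F10Rik, Tubb5, Nrm, Ppp1r18 and Ppp1r18os (Ier3).

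Both gene lists used next were drawn up with earlier results of these data known, and their shares were not tested. Other immediate early genes, from a list of 47, had a region within 5 kb of a start in 29 (61.7%), against 18.1% of all protein-coding genes. The strongest such region of each bound gene on that list had a median lower fold of 9.47. The 5 of the EGR, NR4A and IER group had a median of 15.1 and all 3958 bound genes one of 7.94. Those 5 values ran from 6.18 to 16.9. The values of Ier2 (15.1) and Ier3 (15.9) came from regions nearer to a start of another gene. Over all 19 regions the median was 6.66. Highest on the list of 47 were Junb (46.6-fold and 48.3-fold) and Fosl2 (32.1-fold and 30.6-fold), which encode AP-1 subunits, the growth arrest gene Gadd45g (38.3-fold and 37.1-fold), the antiproliferative gene Btg2 (31.6-fold and 23.8-fold) and the small MAF gene Maff (30.0-fold and 23.7-fold). All 5 were above the strongest of the 19 regions, that of Ier2 at 25.4-fold and 21.2-fold, in both libraries. Regulators and partners of these genes, from a list of 22, had a region in 11 (50%), against the same 18.1% of all protein-coding genes. Strongest were the CREB-family gene Crem (26.0-fold and 21.9-fold, 8 bp upstream of a start), the receptor gene Egfr (16.8-fold and 14.3-fold), the CREB-family gene Atf1 (14.2-fold and 12.6-fold), the EGR corepressor gene Nab2 (12.2-fold and 10.6-fold) and the gene of the NR4A partner receptor Rxrb (12.4-fold and 8.70-fold). Srf, which encodes serum response factor itself, was sixth, with 11.0-fold and 7.67-fold at 3.11 kb downstream.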

How the data were processed

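Phosphorylated STAT3 was measured by ChIP-seq in 2 libraries. CASAVA 1.8, Bowtie2, MACS2 and GRCm38.p3 are named in the submitters' processing notes, without options. The authors deposited 1 peak list per library, with the pileup signal and the fold enrichment (a ratio) per the file headers; a pair of damaged headers holds -log10 p and -log10 q, and -log10 p matched a Poisson tail within 1% for 99.6% and 99.985% of peaks. In the authors' deposited table of reproducible regions, the adjusted p-value column holds the IDR, and the fold and pileup columns hold the mean -log10 p over overlapping peaks (12924 of 12925 regions, within 0.001), so folds were taken from the peak lists. Its summit column is the midpoint.

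Positions are 1-based. Distances run to starts of the listed Ensembl transcripts, or for Egr4 to the RefSeq start. The background was 21883 RefSeq protein-coding genes (GRCm38.p6), whose table was used without strand, so single libraries were counted at either gene end. Lists, motifs and members were chosen with earlier results of these data known. Named were all 10 genes with every region, the genes sharing a region, and the 5 strongest genes of each list; Srf was added after its value was seen. No test was planned, since there is 1 condition with 2 libraries. Versions were matplotlib 3.10.9, scipy 1.17.1, Python 3.11.15, pandas 2.3.3 and numpy 2.4.6. On simulated data, 200 of 200 planted genes among 21883 and 500 of 500 planted motifs were found. Alternatives were other windows, an IDR of 0.01, stricter overlap, a -log10 q of at least 10, mean instead of strongest peaks, equal peak numbers and each library alone; either gene end was and the motif TTCNNGAA were added after the data were seen.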

Additional observations from a re-analysis of the deposited data

How the results depend on the processing

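The count of 5 genes with a region within 5 kb was also 5 at an IDR of 0.01 or below (14.8% of all genes) and by replicate summits (18.1%), and 6 when counted from either end of the RefSeq gene (19.3%), which adds Nr4a1 and Ier5 and loses Nr4a2, whose regions lie at internal starts. It was 3 with a window of 1 kb and 8 with one of 25 kb, where the share of all genes was 34.3%. With 1 library left out, counted by those RefSeq ends, the count ran from 8 to 9 and the share of all genes from 34.8 to 49.8%. Of the 19 regions, 15 (78.9%) had an IDR of 0.01 or below, as had 79.3% of all regions, 19 overlapped by at least 50% of the shorter peak, 18 had summits within 100 bp and 6 lay within 5 kb of a start. Requiring a -log10 q of at least 10 in both libraries left 14 regions and raised the median lower fold from 6.66 to 9.14, since weak regions leave. Averaging all overlapping peaks lowered the value of Egr2 to 7.82 and of the Ier3 region 8.47 kb upstream to 10.4, since weak replicate 2 peaks enter. Within 5 kb of a listed start, all 10 genes had a replicate 1 peak and 8 a replicate 2 peak, and at a -log10 q of at least 10 these were 7 and 5. By RefSeq ends, where shares of all genes were computed, the counts at that q were 7 (29.2% of all genes) and 4 (15.5%), and 7 (35.3%) with as many replicate 1 peaks as replicate 2 has. No paired analysis was possible because no result comes from a test and both ChIP libraries form 1 group. The lowest background was 4.72 fragments in replicate 1 and 2.91 in replicate 2, and its part in which weak sites were found was not tested.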
